A study of Mus musculus with 20 samples.

Results

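In wild-type mouse promyelocytes, 132 of 84524 windows of the genome gained CpG methylation between the CD34+ and the CD34- stage by the rule used here, chosen by the wild-type values alone. Each window was a fixed 1 kb stretch of chromosomes 1 to 19 (mm9) that held at least 3 cytosines read at least 10 times in every library. Its methylation level was the percent of the reads over these cytosines that were methylated. It was counted as gaining when the mean level of the wild-type CD34- libraries lay at least 8 percentage points above that of the wild-type CD34+ libraries and when the lowest CD34- library lay above the highest CD34+ library. The wild-type values are therefore given as a description. The rule selected 0.156% of all windows, and the mirror rule for losses selected 791 windows.

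Methylation of CpG cytosines is laid down by the DNMT3 enzymes, copied to the new strand by DNMT1 at replication, and removed by failure to copy it or by oxidation through TET enzymes. In blood cell maturation, enhancers that come into use commonly lose the mark, while regulatory sequences of the stem and progenitor programme can gain it as they are closed. Promyelocytes are the granulocyte precursors in which primary granules form, and CD34 is a surface protein of progenitors that is lost as they mature. PML-RARα, the fusion of the PML protein with retinoic acid receptor α, drives acute promyelocytic leukaemia, in which maturation stops at about this stage.

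Enhanced reduced representation bisulfite sequencing (ERRBS), which reads CpG-rich restriction fragments after bisulfite treatment, was applied to 20 libraries of sorted cells, with 5 in each of 4 groups. The labels name the genotypes Wild-Type and PML-RARa and the fractions CD34 positive and CD34 negative, which the design text calls early and late promyelocytes, all on the FVB/n background. They state neither age, nor the promoter of the transgene, nor whether each library stands for a mouse of its own, so that p-values measure only the spread between these libraries and that spread may be technical. Libraries are named by the number that opens their label. Consecutive numbers (1 and 2, 3 and 4, and so on) always joined a CD34+ and a CD34- library of the same genotype. Such libraries also always shared the number after the hash sign of the label, whose meaning is not given. The labels do not say that they came from the same animal or pool, and the test described below used no pairing. The sort was checked here by no marker, since only DNA was measured, and in sorted bulk cells a change of level within cells cannot be told apart from a change in the mix of cells.

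Summed over cytosines, the libraries had a total coverage of 83631324 to 362881291 reads. Over the gaining windows the median window held between 236.5 and 786.5 reads per library. Some libraries stood at the edge of their group, as the highest or lowest of 5, more often than the rest. This was so in 60.6% of the gaining windows for WT CD34+ replicate 1, in 58.3% for PML-RARα CD34+ replicate 11, in 53.8% for replicate 5 of that group and in 55.3% for replicate 6 of the PML-RARα CD34- group, against 21.2% to 48.5% for the others. PML-RARα CD34+ replicate 11, WT CD34+ replicate 1 and PML-RARα CD34+ replicate 5 also had the lowest total coverage (83631324, 94591788 and 112720321 reads). PML-RARα CD34- replicate 6 had 289157822. Whether depth set their place at the edge was not tested. The libraries were run on 4 flowcells, lettered A to D here. Of the WT libraries, A and D held 2 and B held 1 of each fraction, whereas for PML-RARα only flowcell B held both fractions, with 3 CD34+ and 2 CD34- libraries.

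The gaining windows mostly lay far from each other among the windows tested. They lay on all 19 autosomes, from 1 window on chromosome 19 to 15 on chromosome 2, and made up between 0.357 per 1000 windows tested (chromosome 19) and 2.71 per 1000 (chromosome 8). No gaining window lay directly next to another, but only 35 of the 132 had a tested window beside them. The median distance to the nearest other gaining window was 3669 kb, and 94 of the 132 had none within 1 Mb. The spacing of an equal number of other tested windows was not measured. Within 50 kb of another stood 7 of them. The closest pair lay on chromosome 8, positions 97508001 to 97509000 and 97510001 to 97511000, where WT cells gained 10.2 and 9.06 points and PML-RARα cells 8.68 and 3.75 points. The pair with the largest gains lay 24 kb apart on chromosome 15, at positions 99449001 to 99450000 and 99473001 to 99474000, with WT gains of 39.1 and 41.0 points and PML-RARα gains of 16.1 and 22.9 points. Another gaining window 49 kb further on the same chromosome, positions 99522001 to 99523000, gained 9.46 points in WT cells and 4.12 in PML-RARα cells. No losing window was adjacent to a gaining one, which could be seen only at the same 35, and 15 gaining windows had a losing window within 50 kb.

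They held few covered cytosines and were mostly of intermediate methylation. Cytosines were counted on each strand and only where every library had at least 10 reads. The count is therefore not the CpG content of the window. The median gaining window held 4 cytosines, against 5 over all windows, and 6.82% held 10 or more, against 27.6% of all windows. The median losing window also held 4, and 6.32% of the losing windows held 10 or more. By the mean over all libraries, 26 gaining windows had a level below 20%, 38 one of 20 to 50%, 49 one of 50 to 80%, and 19 one above 80%. Levels of 20 to 80%, which 5.71% and 11.7% of all windows had in the lower and the upper part of that range, thus held 28.8% and 37.1% of the gaining windows. The rule itself favours the middle, because a window near 0 or 100% has less room to differ by 8 points. This bears on the cytosine number too, since 17924 of the 23331 windows with 10 or more cytosines had a mean level below 10%.

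**Figure D1:**
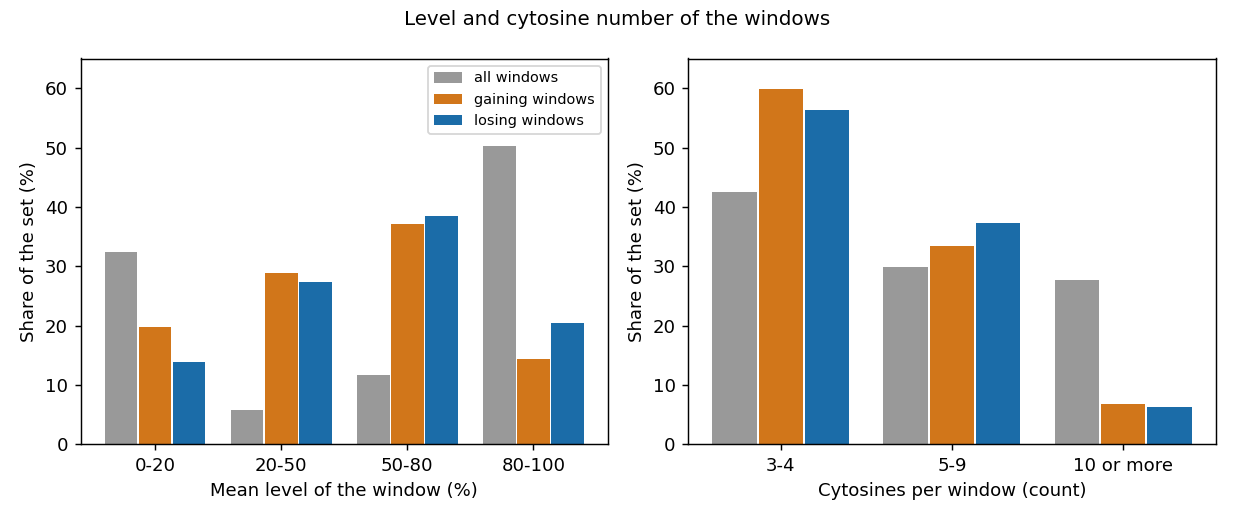
Shares of all windows (grey), gaining windows (orange) and losing windows (blue) by mean level over the 20 libraries in percent (left) and by number of cytosines (right), each bar a percent of its set. Few gaining and losing windows hold 10 or more cytosines (6.82% and 6.32%, against 27.6% of all windows), and most lie between 20 and 80%.

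None of the 132 belonged to the 17924 windows with 10 or more cytosines and a mean level below 10%, a pattern typical of unmethylated CpG islands at promoters. Such windows made up 21.2% of all windows. Of the gaining windows 9.85% lay within 5 kb of such a window, at a median distance of 28.5 kb. Of all windows outside that class 17.1% did, at a median of 32 kb, and of the losing windows 14.8%, at a median of 24 kb. Genes, exons and promoters were not assigned, because the annotation at hand was of another genome build, and for the same reason no sequence is shown.

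The largest WT gain was at chromosome 9, positions 116075001 to 116076000, read through 4 cytosines within 59 bp. Its WT CD34+ libraries stood at 0%, 16.0%, 12.2%, 45.5% and 17.4% and its CD34- libraries at 66.2%, 66.5%, 65.5%, 76.0% and 71.5%. The 0% was 0 of 152 reads in replicate 1, summed over the 4 cytosines. Taken as separate reads these allow a level of up to 1.97%. A read was counted at each cytosine it covers, so that the limit is higher where cytosines share reads. The CD34- libraries thus lay close together, while the CD34+ libraries were spread widely below them. In PML-RARα cells the CD34+ libraries ranged from 0.781% (replicate 5) to 60.7% (replicate 3) and the CD34- libraries from 50.9% (replicate 4) to 80.8% (replicate 20). The fractions overlapped, and the difference of 34.7 points had an adjusted p of 0.0956 in the quasi-binomial test described below.

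The next 7 gains in WT cells lay between 36.3 and 48.3 points. Besides the windows on chromosomes 4 and 8 described below and the pair on chromosome 15, they were on chromosome 1, positions 64647001 to 64648000 (54.1% ± 7.48 to 97.1% ± 3.02), and on chromosome 7, positions 54248001 to 54249000 (47.2% ± 11.7 to 89.6% ± 3.62) and 121334001 to 121335000 (53.4% ± 11.9 to 89.8% ± 7.59; SD, n = 5 each). On chromosome 1 the PML-RARα CD34- libraries stood between 78.1% and 100%, and 4 of the CD34+ libraries between 70.4% and 74.2%, with replicate 11 at 99.7%. Both chromosome 7 windows kept the fractions apart in PML-RARα cells, where the levels were 64.7% ± 7.81 and 88.2% ± 8.79 at the first and 61.0% ± 11.9 and 87.6% ± 8.43 at the second. Their differences of 23.6 and 26.6 points had adjusted p of 0.0539 and 0.0906 and were not called by the quasi-binomial test.

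Just inside the threshold of 8 points stood positions 11425001 to 11426000 of chromosome 2 (8.08 points) and, on chromosome 4, positions 138451001 to 138452000 (8.55) and 120701001 to 120702000 (8.59). Just outside it, with fractions that did not overlap either, stood positions 35190001 to 35191000 of chromosome 11 (7.77), positions 76288001 to 76289000 of chromosome 15 (7.49) and positions 29342001 to 29343000 of chromosome 7 (7.32). The PML-RARα differences of the first 3 were 4.09, -2.39 and 6.59 points and those of the last 3 were 3.36, 1.85 and 1.21 points. Summed over the 20 libraries, the gaining window with the most reads was chromosome 8, positions 73292001 to 73293000, with 49725 reads, a median of 2306 per library, and gains of 19.2 points in WT and 16.5 in PML-RARα cells. The one with the fewest was chromosome 2, positions 165811001 to 165812000, with 2947 reads, a median of 169.5 per library, and gains of 14.2 and 11.5 points.

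The PML-RARα libraries took no part in the choice, and they show whether the same windows moved in other libraries. Averaged over the 132 windows, the PML-RARα CD34+ libraries stood at 47.7% ± 1.41 and the CD34- libraries at 55.2% ± 1.31 (SD, n = 5 each), a difference of 7.53 points. The CD34+ libraries ranged from 45.5% to 49.0% and the CD34- libraries from 53.8% to 56.4%, so that the fractions did not overlap. Over all windows the levels went the other way, from 57.2% ± 0.328 to 56.6% ± 0.255. Within flowcell B the means over the gaining windows were 46.9% and 53.8%.

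In WT cells the means over the gaining windows were 40.5% ± 2.97 in CD34+ libraries (36.8% to 44.1%) and 57.6% ± 1.37 in CD34- libraries (55.5% to 59.0%). Every PML-RARα CD34+ library lay above every WT CD34+ library, by 7.20 points in the mean, and the PML-RARα CD34- mean lay 2.38 points below the WT one. The rule picked windows in which the WT libraries happened to be far apart, so that this distance between the genotypes was not tested. At the midpoint between the WT group means as a mark, each PML-RARα CD34+ library was above it in 52 to 64 of the 132 windows and each CD34- library in 87 to 113.

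**Figure D2:**
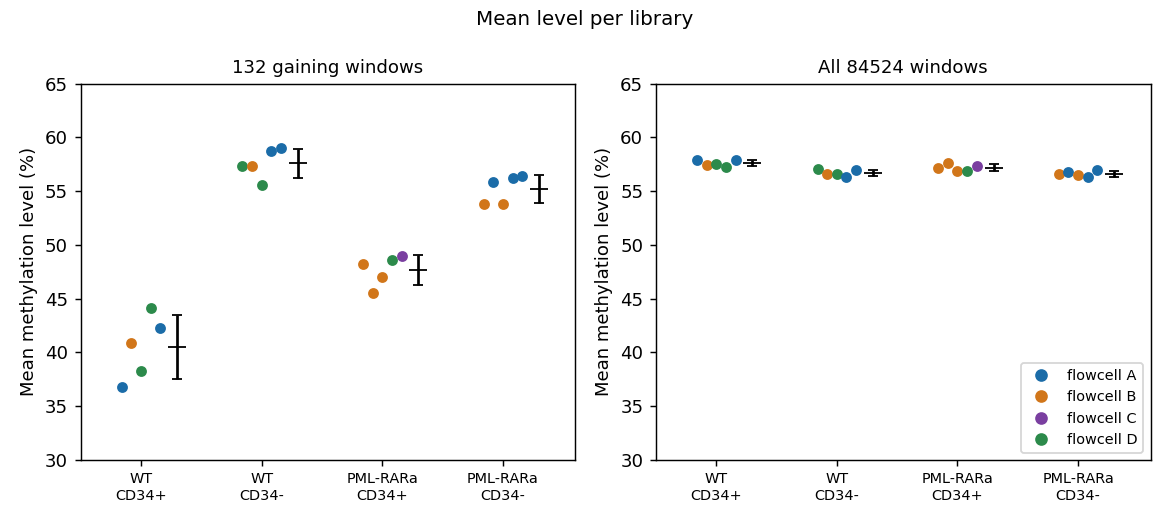
Mean methylation level per library in percent, over the 132 gaining windows (left) and over all 84524 windows (right). Points are libraries coloured by flowcell, and the bars give the mean ± SD of 5 libraries. In the gaining windows the PML-RARα CD34- libraries (53.8% to 56.4%) lie above the CD34+ ones (45.5% to 49.0%), while over all windows the CD34- mean is the lower one.

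Window by window, 107 of the 132 (81.1%) had a higher mean in CD34- than in CD34+ PML-RARα libraries, against 44.4% of all windows. The median difference was 5.74 points, against -0.0571 over all windows and 14.0 points in the WT libraries that chose them. A rise of at least 8 points was measured at 50 gaining windows (37.9%, against 2.37% of all windows) and a fall of that size at 4 (3.03%, against 4.20%). These shares of all windows were not matched for level. Of all windows 32.4% had a mean level below 20% and 50.2% one of 80% or more, where there is less room to differ. Within flowcell B, 97 of the 132 differences (73.5%) were above 0, against 45.5% of all windows, with a median of 5.73 points.

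The same rule that chose the windows in WT libraries was met in PML-RARα libraries by 13 of the 132, or 9.85%, against 0.125% of all windows. At mean levels of 20 to 50% and of 50 to 80%, 4 of 38 and 5 of 49 gaining windows met it. Of all windows at those levels 0.414% and 0.355% did. The 13 were 12.3% of the 106 windows that met it in PML-RARα cells. Of them, 5 are called and described below, and 2 are those on chromosome 7. The other 6, named because they met the rule, were not called, with adjusted p from 0.0587 to 0.390. Those with low levels in PML-RARα CD34+ cells were on chromosome 2, positions 59667001 to 59668000 (2.11% ± 3.32 to 14.7% ± 1.79, SD, n = 5 each), chromosome 5, positions 123429001 to 123430000 (means of 7.41% and 21.4%), and chromosome 6, positions 125186001 to 125187000 (12.0% ± 3.10 in CD34+ cells). Their PML-RARα gains of 12.6, 14.0 and 14.0 points stood beside WT gains of 11.3, 12.3 and 14.9 points. The rest were on chromosome 4, positions 117032001 to 117033000, chromosome 10, positions 92827001 to 92828000, and chromosome 14, positions 79540001 to 79541000, with PML-RARα gains of 18.3, 18.4 and 10.9 points beside WT gains of 30.8, 32.6 and 15.6 points. The fractions were apart in the same direction, with no minimum difference, in 14 gaining windows (10.6%, against 0.284% of all windows), and in the opposite direction in 1 (0.758%, against 0.765%).

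Differences between the PML-RARα fractions were tested with a quasi-binomial F test fitted over all windows, and a call needed a difference of 10 points or more and an adjusted p below 0.05. The spread in this test was estimated from all 20 libraries, and so in part from the WT libraries that chose the windows. A choice for no overlap favours a low spread between WT libraries, so that these p-values are not independent of the choice. Of the gaining windows 7 were called higher in CD34- cells, or 5.30%, against 0.0106% of all windows, and none was called lower, against 0.0615%. At an unadjusted p below 0.05, 55 gaining windows (41.7%) were higher, against 3.38% of all windows, and 2 (1.52%) were lower, against 6.21%. The called gaining windows numbered 3 by limma, of 4 called over all windows, and 0 by edgeR, of 0. At an unadjusted p below 0.05, limma and edgeR had 48 and 40 gaining windows higher (36.4% and 30.3%, against 2.35% and 1.85% of all windows). The called gaining windows numbered 0 with flowcell as a factor and 0 with only PML-RARα libraries in the fit, both of 0 over all windows. Without the 4 PML-RARα libraries of high scatter (CD34+ replicates 5 and 11, CD34- replicates 6 and 12) 1 was called, of 1 over all windows. These 3 fits had 39, 50 and 53 gaining windows higher at an unadjusted p below 0.05. They were 29.5%, 37.9% and 40.2% of the gaining windows, against 2.22%, 2.31% and 2.57% of all windows.

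The 7 called gaining windows were 7 of only 9 windows called higher in PML-RARα cells anywhere. Of these 7, the 6 windows not on chromosome 18 follow one by one. The other 2 of the 9, which are named here only because their values stood out, lay on chromosome 4, positions 118198001 to 118199000 (89.8% ± 6.17 to 100%, with WT means of 95.0% and 95.8%), and on chromosome 8, positions 14832001 to 14833000 (80.1% ± 6.41 to 90.3% ± 1.03, with WT means of 81.5% and 87.2%). At both, the WT fractions overlapped.

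The largest PML-RARα gain was at chromosome 4, positions 55754001 to 55755000, a window of 11 cytosines over 380 bp with a median of 1545 reads per library. The PML-RARα CD34+ libraries (replicates 3, 5, 11, 13 and 19) stood at 27.5%, 17.1%, 14.6%, 40.8% and 42.7%, and the CD34- libraries (replicates 4, 6, 12, 14 and 20) at 60.8%, 75.3%, 70.7%, 68.7% and 64.9%. The lowest CD34- library was thus well above the highest CD34+ one. The difference was 39.5 points (28.5% ± 13.0 to 68.1% ± 5.53, adjusted p = 0.0171), as large as in WT cells, where it was 40.3 points, and 46.0 points within flowcell B.

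Single cytosines of this window were unequal. The 2 nearest its start, at positions 55754129 and 55754175, stayed low in CD34- cells, with PML-RARα means of 21.2% and 4.00% and differences of 5.90 and -1.76 points. The other 9, at positions 55754286 to 55754508, gained between 24.4 and 52.6 points in PML-RARα cells and up to 56.5 points in WT cells. The gain thus lay in one stretch and not in the whole window. At the CpG read on both strands at positions 55754331 and 55754332, the plus and minus strands gained 42.4 and 31.2 points in PML-RARα cells.

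At chromosome 8, positions 12931001 to 12932000, with 4 cytosines in 38 bp, the PML-RARα CD34+ libraries stood at 43.5%, 46.6%, 36.1%, 50.7% and 51.1% and the CD34- libraries at 72.1%, 95.2%, 82.3%, 75.6% and 84.5%, in the order of replicates given above. The fractions were more than 20 points apart. The difference was 36.3 points (adjusted p = 0.0171) beside 48.3 points in WT cells. All 4 cytosines gained, by 22.2 to 45.2 points.

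A second window on chromosome 8, positions 125287001 to 125288000, rose from 59.0% ± 13.9 to 84.5% ± 3.27, by 25.5 points (adjusted p = 0.0223), beside 26.9 points in WT cells. Its CD34+ libraries were spread from 36.8% (replicate 5) to 73.0% (replicate 3), while the CD34- libraries kept between 81.1% and 88.7%. Each of its 7 cytosines gained, by 18.6 to 32.5 points.

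At chromosome 2, positions 165613001 to 165614000, the CD34+ libraries stood at 37.6%, 46.7%, 45.0%, 39.1% and 40.7% and the CD34- libraries at 60.3%, 53.8%, 54.1%, 55.6% and 53.3%. This was the called gain with the smallest adjusted p (0.00614), on a difference of 13.6 points, beside 19.0 points in WT cells. Its cytosines kept very different levels through maturation. Position 165613789 went from 76.7% to 91.3% in PML-RARα cells and position 165613760, 29 bp away, from 11.7% to 30.5%.

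Chromosome 13, positions 51843001 to 51844000, rose from 16.4% ± 3.98 to 30.5% ± 2.97, by 14.1 points (adjusted p = 0.0315), slightly more than the 13.0 points in WT cells. All of its 6 cytosines were higher in CD34- cells, and position 51843802 gained the most, from 37.4% to 67.3%. Chromosome 11, positions 100753001 to 100754000, rose from 24.3% ± 6.70 to 46.9% ± 10.1, by 22.6 points (adjusted p = 0.0268), beside 33.7 points in WT cells. Here CD34- replicate 12 (30.1%) lay below CD34+ replicate 13 (34.8%), and 1 of its 3 cytosines, position 100753254, went from 53.2% to 79.7% while position 100753286 went from 7.77% to 12.3%.

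**Figure D3:**
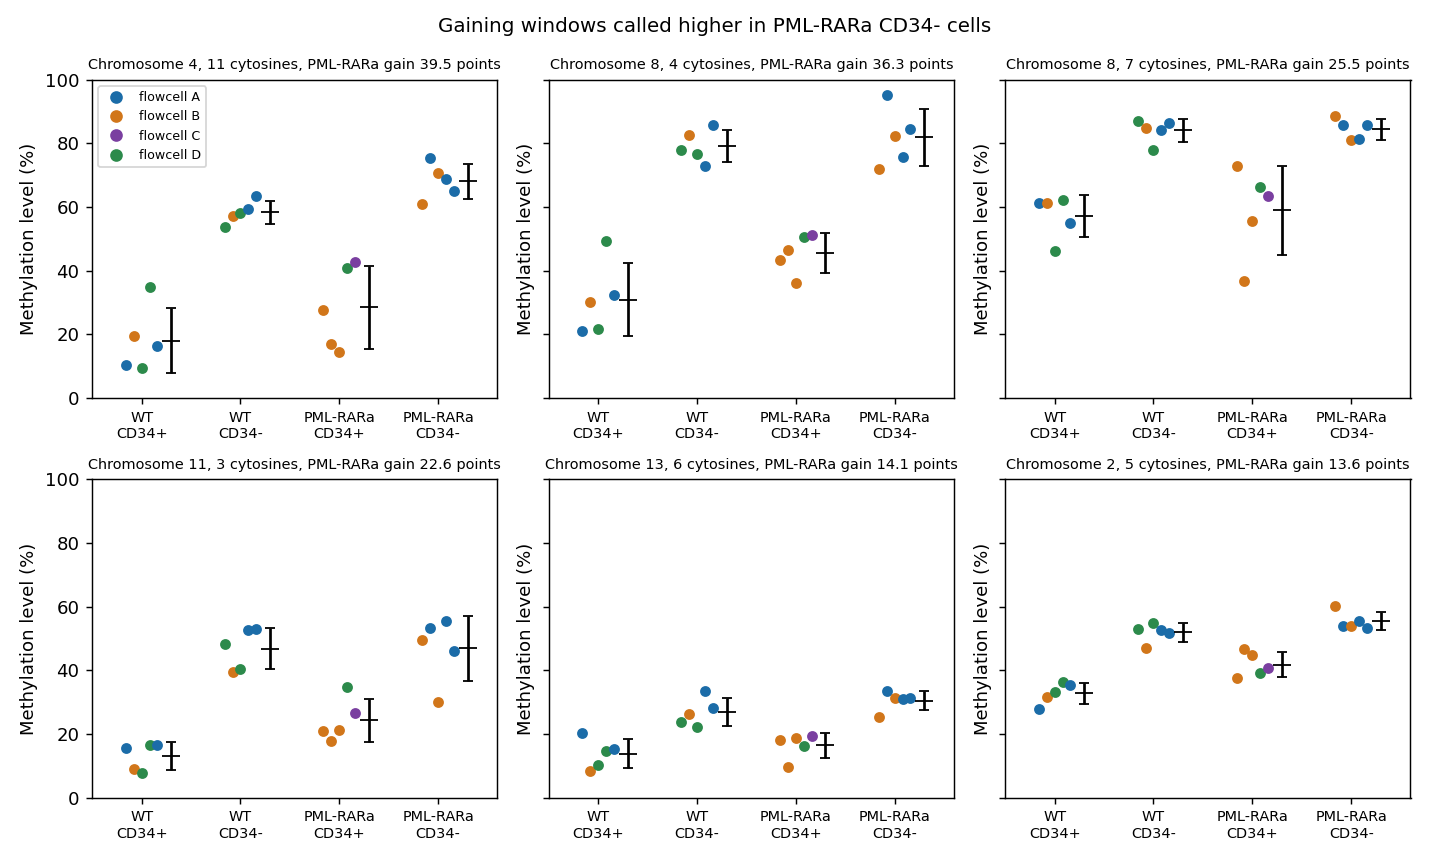
Methylation level in percent of the 6 gaining windows called higher in PML-RARα CD34- cells that are described in the text, for each of the 20 libraries. Points are libraries coloured by flowcell and bars give the mean ± SD of 5 libraries. The fractions are apart in both genotypes, except on chromosome 11, where 1 PML-RARα CD34- library (30.1%) lies below 1 CD34+ library (34.8%).

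No called window kept its call under every alternative. Chromosome 2 and the chromosome 4 window kept it in 19 of 20 fits that left out 1 library, the first failing without PML-RARα CD34+ replicate 19 and the second without CD34- replicate 14. The chromosome 8 windows kept it in 17 of 20 each, chromosome 11 in 14 and chromosome 13 in 12. All 6 were higher in CD34- cells within flowcell B as well, by 46.0 points on chromosome 4, 35.1 and 29.8 on chromosome 8, 19.8 on chromosome 11, 14.1 on chromosome 2 and 12.9 on chromosome 13, and none was called there.

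Gains were larger in PML-RARα cells where they had been larger in WT cells. The 34 windows with a WT gain of at least 20 points had a median PML-RARα difference of 18.2 points, with 32 of 34 above 0. The 48 windows with a WT gain of 12 to 20 points had a median of 6.78 points, with 43 above 0, and the 50 windows with one of 8 to 12 points a median of 3.06 points, with 32 above 0. Values chosen as extreme tend to be less extreme in other libraries, and the smaller PML-RARα differences are therefore no measure of a weaker change. By level, the median PML-RARα difference was 4.11 points below 20% methylation, 8.12 at 20 to 50%, 7.43 at 50 to 80% and 4.20 above 80%, where the medians of all windows lay between -0.950 and -0.00140.

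**Figure D4:**
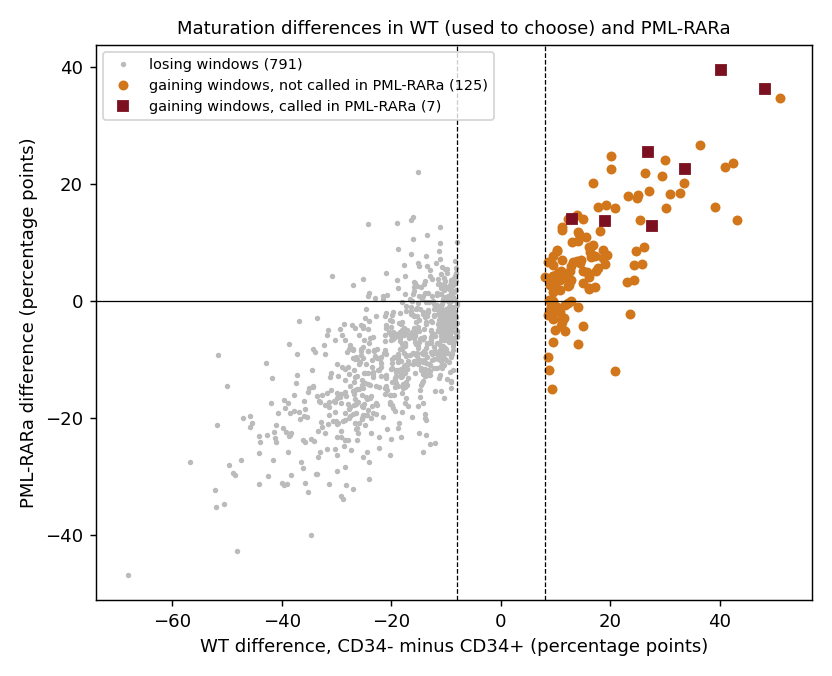
Difference between CD34- and CD34+ means in percentage points in WT libraries (x axis, used to choose the windows, dashed lines at 8 and -8) and in PML-RARα libraries (y axis, not used). Orange points and dark squares are the gaining windows, squares those called in PML-RARα, and grey points are the losing windows. Of the gaining windows 107 of 132 lie above 0 on the y axis, and 32 of the 34 with WT gains of at least 20 points.

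A minority went the other way in PML-RARα cells. Of the 25 gaining windows with a negative difference, the lowest was chromosome 8, positions 74190001 to 74191000, at -15.1 points. There 4 CD34+ libraries stood between 0% and 10.6% and replicate 11 at 98.9% of 91 reads, summed over 3 cytosines. Without that library its difference was 3.36 points. Chromosome 17, positions 31462001 to 31463000, stood at -12.1 points and chromosome 13, positions 58963001 to 58964000, at -11.8 points, with replicate 11 at 90.0% and 100% and differences of -5.17 and -6.62 points without it.

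At chromosome 11, positions 98610001 to 98611000, no single library set the direction. WT levels were 31.1% ± 3.65 in CD34+ and 39.7% ± 3.58 in CD34- cells. The PML-RARα CD34+ libraries stood at 31.0%, 39.2%, 36.4%, 36.4% and 40.7% and the CD34- libraries at 23.0%, 26.4%, 29.1%, 28.4% and 28.6%. Every CD34- library was thus below every CD34+ one, the reverse of the order in WT cells, with a difference of -9.63 points (adjusted p = 0.127), -9.46 within flowcell B and -9.73 without replicate 11. Chromosome 9, positions 70253001 to 70254000, differed by -7.41 points, and there WT CD34+ replicate 1 stood at 50% against 72.1% to 76.1% in the other 4. Without WT CD34+ replicate 1, 12 of the 132 windows no longer met the rule. Their median PML-RARα difference was 0.934 points with 6 of 12 above 0, against 6.33 points with 101 of 120 above 0 for those that still met it.

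The covered cytosines of a gaining window spanned a median of 170.5 bp, against 197 bp over all windows. The span is set by the restriction fragments and the coverage minimum, and does not measure the width of a gain. Of 670 cytosines in these windows 479 (71.5%) were higher in CD34- than in CD34+ PML-RARα cells, against 35.1% of cytosines in all windows. In 41 windows every cytosine was higher and in 6 none was. Of 102 CpGs read on both strands, 55 were higher on both strands and 5 on neither, and the strands differed by a median of 6.50 points. These counts by window and by strand were not made over all windows. Nearby cytosines of a strand can share reads, so that their agreement is no separate support.

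Where windows on either side could be measured, their median difference was near 0. Of the 132 gaining windows 35 had at least 1 tested neighbour, and these 40 neighbours had a median PML-RARα difference of -0.00664 points, with 20 above 0, against 5.56 points for the gaining windows beside them. Of the 40 neighbours, 10 had a mean level below 20% and 18 one above 80%, where there is less room for a gain. The neighbours were not matched to the gaining windows for level. Cytosines up to 0.5 kb outside the window edge were available for 42 windows and differed by 1.29 points on average in PML-RARα cells and 2.26 in WT cells, while the same windows averaged 7.96 and 15.3 points inside. From 0.5 to 1 kb the averages were 0.464 and -0.0292 points. The WT contrast is a consequence of choosing the window and not its neighbours. The PML-RARα values took no part in that choice. Where the genotypes share a gain, however, the choice also raises the PML-RARα mean inside the window and not outside it.

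**Figure D5:**
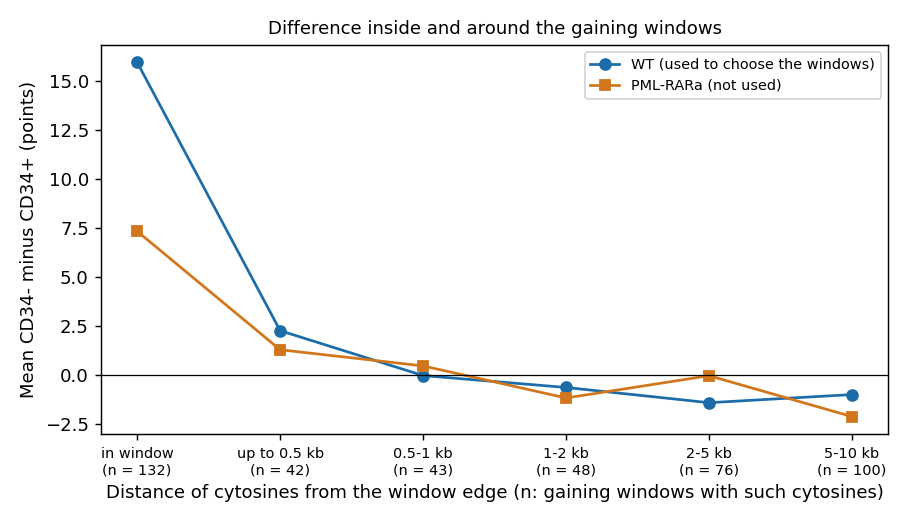
Mean difference between CD34- and CD34+ cells in percentage points (y axis) over cytosines inside the gaining windows and at growing distance from their edges (x axis, with the number of windows that have such cytosines), averaged first within a window and then over windows, which are not replicates, so that no error is drawn. In PML-RARα libraries the mean is 7.34 points inside and 1.29 points within 0.5 kb outside.

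The losing windows are the mirror set. Of 791 windows 686 (86.7%, against 55.3% of all windows) had a negative PML-RARα difference, with a median of -8.74 points beside -17.2 points in WT cells, and 127 (16.1%, against 0.386% of all windows) met the mirror rule in PML-RARα libraries. Whether the 9.85% of gaining windows that met their rule again differs from this share was not tested.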

How the data were processed

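ERRBS was made on sorted mouse promyelocytes, 20 libraries in 4 groups of 5, with groups and flowcells taken from the labels. The submitters' processing notes name CASAVA 1.8.2, Bismark and the build mm9. The deposited values are, per the file headers, the count of reads over each CpG cytosine of each strand (coverage) and the percent of them that carry C or T. The authors listed no cytosine with fewer than 10 reads and did not pool libraries. Coverage times percent C gave a whole number of methylated reads at 100% of cytosines, within the rounding of the percent to 2 decimals. The 1150978 autosomal cytosines read 10 times or more in every library were used, and their reads summed over 84524 windows. A read adds to each cytosine it covers, and there were no molecular identifiers. Intervals (95% Wilson) and limits for 0 reads (3 reads of the total) treat the summed counts as separate reads. They are therefore too narrow for the counting error where cytosines share reads, and cover no other error.

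The PML-RARα fractions were compared by a quasi-binomial F test with 1 term per group, two-sided, 16 residual degrees of freedom, overdispersion moderated with squeezeVar of limma 3.58.1 (3.07 prior degrees of freedom, floor of 1, median 9.49) and Benjamini-Hochberg adjustment over all windows. In simulated data with the real coverage it called 16.5% of 200 gains of 10 points, 63.0% of 20 points and 97.5% of 40 points among 84524 windows. The simulated gains were placed only in windows of low to middle mean level, so that recovery at highly methylated windows was not measured. A call also needs a measured difference of at least 10 points, which a true gain of 10 points can miss. False calls were 5.09% of calls, and 8.17% of unchanged windows had an unadjusted p below 0.05. Limma and edgeR 4.0.16 were alternatives. Named windows were the 8 largest WT gains, those called in PML-RARα, the 5 lowest PML-RARα differences, the 3 on each side of the threshold, and the windows with the most and the fewest reads in total. Windows on chromosome 18 were counted and not named. The members and lists were chosen with earlier results of these data known.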

Additional observations from a re-analysis of the deposited data

Results flagged for a closer look

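In each group of 5 libraries, a highest or lowest value was noted if the gap to its neighbour took up most of the group's range (Dixon's 95% critical value, 0.71). Of 104 groups checked (the means over the gaining windows and the windows named by the rule for naming, not the others the text gives) 12 were noted. In groups not chosen by their values, chance gives about 1 in 20, or 5.2. Most of these windows were chosen by the values of the same libraries, so that 12 beside 5.2 does not measure an excess. None was a mean over the gaining windows. The intervals below treat the reads summed over cytosines as separate and are too narrow where cytosines share reads.

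PML-RARα CD34+ replicate 11 was apart at 4 windows. It stood at 98.9% (95% Wilson interval 94.0% to 99.8%) on chromosome 8, start 74190001, while the other 4 libraries lay between 0% and 10.6%. On chromosome 1, start 64647001, it stood at 99.7% (98.3% to 99.9%), against 70.4% to 74.2%. On chromosome 7, start 54248001, it stood at 51.3% (44.9% to 57.5%), against 65.9% to 71.2%, and on chromosome 11, start 35190001, at 79.2% (75.3% to 82.7%), against 96.5% to 99.0%.

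WT CD34+ replicate 1 was apart at 3 windows. It stood at 50% (41.8% to 58.2%) on chromosome 9, start 70253001, against 72.1% to 76.1%. On chromosome 11, start 35190001, it stood at 71.1% (63.2% to 77.9%), against 94.5% to 96.3%, and on chromosome 4, start 120701001, at 8.59% (4.87% to 14.7%), against 13.4% to 14.5%.

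PML-RARα CD34+ replicate 5 stood at 2.87% (1.23% to 6.55%) on chromosome 4, start 120701001, against 16.5% to 19.5%, and at 75.3% (71.7% to 78.7%) on chromosome 9, start 70253001, against 84.6% to 86.0%. At the same chromosome 4 window PML-RARα CD34- replicate 6 stood at 32.0% (27.7% to 36.6%), against 18.3% to 20.5%. WT CD34- replicate 16 stood at 25.8% on chromosome 8, start 74190001, against 11.8% to 15.2%, and WT CD34+ replicate 9 at 24.7% (22.1% to 27.5%) on chromosome 11, start 98610001, against 31.6% to 33.7%.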

How the results depend on the processing

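The direction of the PML-RARα median held under each alternative, between 4.14 and 6.50 points without any 1 library and at 13.7 points for the 56 windows with a WT gain of at least 15 points. The number of gaining windows was 53 with at least 5 cytosines per window and 157 to 205 without any 1 WT library, since fewer libraries overlap less often (205 without WT CD34+ replicate 17, 199 without WT CD34- replicate 2). Between 120 and 132 of the 132 windows stayed in the set. The number called higher in PML-RARα cells was the least stable value. It was 12 with windows of 500 bp and 1 at a coverage minimum of 20 reads. The numbers called over all windows are not given for these settings. The number was 3 by limma (4 over all windows) and 0 by edgeR. It was 0 with only PML-RARα libraries, 0 with flowcell as a factor and 0 within flowcell B. Without the 4 PML-RARα libraries of high scatter it was 1 (1 over all windows). Within flowcell B and without the libraries of high scatter, 31 and 53 gaining windows were higher at an unadjusted p below 0.05. These were 23.5% and 40.2%, against 3.29% and 2.57% of all windows. Without any 1 library the number called ranged from 1 to 9, with 1 without CD34+ replicate 19, 3 without CD34+ replicate 3 or CD34- replicate 20 and 4 without CD34- replicate 14. The number that met the WT rule again in PML-RARα libraries was 7 at a coverage minimum of 20, 6 with at least 5 cytosines, 35 within flowcell B, 31 without the libraries of high scatter, and 13 to 20 without any 1 library (20 without CD34+ replicate 11). Fewer libraries make the rule easier to meet. The cause of the other changes was not tested. The shares of all windows that met the rule under these alternatives are not given here. Nor is the number of gaining windows at a coverage minimum of 20. These counts therefore cannot be read beside the 13 of the main setting. With the number after the hash sign of the label as a factor, 6 were called, of 9 over all windows. With consecutive label numbers as a replicate block, an alternative chosen after seeing the data, 8 were called, of 14 over all windows. Of these 8, 4 were among the 7, and the calls on chromosome 4 (start 55754001), chromosome 13 (start 51843001) and chromosome 18 were lost. The labels do not state this pairing, and deviations of such libraries from their group means correlated by -0.0290 to 0.143, above 0.1 in 3 of 10 pairs, with 11 of 20 libraries correlating best with their own partner. How many would do so by chance was not measured.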
